A study of Homo sapiens with 8 samples.

Results

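Glycolysis splits glucose into pyruvate in a chain of cytosolic enzymes and yields ATP and NADH, and the pentose phosphate pathway branches off at glucose 6-phosphate to make NADPH and ribose 5-phosphate. Hexokinase and phosphofructokinase sit at the controlled steps of glycolysis, and many tumour cells run the chain down to lactate in the presence of oxygen. The genes described here are 30 that encode the enzymes of both pathways, the bifunctional PFKFB enzymes, the GLUT transporters SLC2A1 and SLC2A3 and the lactate carriers SLC16A1 and SLC16A3, chosen by gene symbol and each read at its brightest probeset. The choice was made with earlier results of these data known. Of the 30 genes, 27 had a probeset with their symbol alone, among 18417 genes named in this way on arrays of 33297 probesets. PGAM1 was measured only at probesets that also carry the symbol of PGAM4, and SLC16A1 and SLC16A3 were not analysed here.

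The study examined how signalling through the FGF receptor bears on the response of cells to TNFα, in DU145, an established androgen-independent line from a prostate carcinoma metastasis. All cells were moved to serum-free medium 1 day before treatment. They were then left untreated (Mock), given FGF19 at 50 ng/ml with heparin at 100 μg/ml for 100 min, given TNFα at 50 ng/ml for 90 min, or given FGF19 with heparin first and TNFα for the last 90 min (FGF19 + TNFα). Each of the 4 groups had 2 Affymetrix Human Gene 1.0 ST arrays, labelled as biological replicates, whereas the methods speak of duplicate samples on duplicate arrays, so the p-values measure the spread between these arrays. The doses are those of the sample labels, and the methods give lower ones for heparin and TNFα. Heparin was named only for the FGF19 groups, so FGF19 and heparin cannot be told apart, and "with FGF19" below means with both.

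Values are signals on a linear scale, and differences are of mean log2 signal, given ± the standard error of the fit with n = 2 arrays per group. A gene was called where limma gave a Benjamini-Hochberg adjusted p under 0.05 over all 33297 probesets. Array medians lay between 99.5 and 106.6, and the signal below which 20% of probesets fell was 30.7 to 31.6 on the 4 arrays without FGF19 and 34.6 to 36.6 on the 4 with it. Arrays that differed in FGF19 correlated at r = 0.933 to 0.959, and arrays of the same group at 0.967 to 0.980. Of 6 epithelial markers, KRT8, KRT18, KRT19, EPCAM and CDH1 lay at the 83rd percentile of signal or above and KRT5 at the 48.7th. KLK3 and KLK2, which androgen drives in luminal prostate cells, lay at the 28.5th and 36.6th. All 7 NFκB targets on a check list, each also in a table the study chose on these arrays, rose with TNFα, CCL20 most, by 4.78 on the log2 scale (adjusted p = 3.6e-05). With FGF19 against Mock, 3 of 10 MAPK targets rose and 1 fell, the largest difference being 0.56 for ETV5 (adjusted p = 0.0111), where 18.2% of all probesets rose and 14.1% fell, and with TNFα present 1 rose and 2 fell (medians 0.18 and -0.08).

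With FGF19, most of the genes of both pathways fell and none rose. Against Mock, 22 of 27 fell and 0 rose, where 14.1% of all probesets fell and 18.2% rose. In the presence of TNFα, with 4 other arrays, 17 of 27 fell and 0 rose, where 12.9% of all probesets fell and 19.4% rose. The differences were moderate apart from that of PFKL: called falls ranged from 1.24-fold to 3.46-fold against Mock and from 1.25-fold to 3.46-fold with TNFα. The median log2 difference of the 27 genes was -0.57 against Mock and -0.47 in the presence of TNFα, beside 0.08 and 0.10 over all probesets. TNFα alone called none of the 27.

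**Figure D1:**
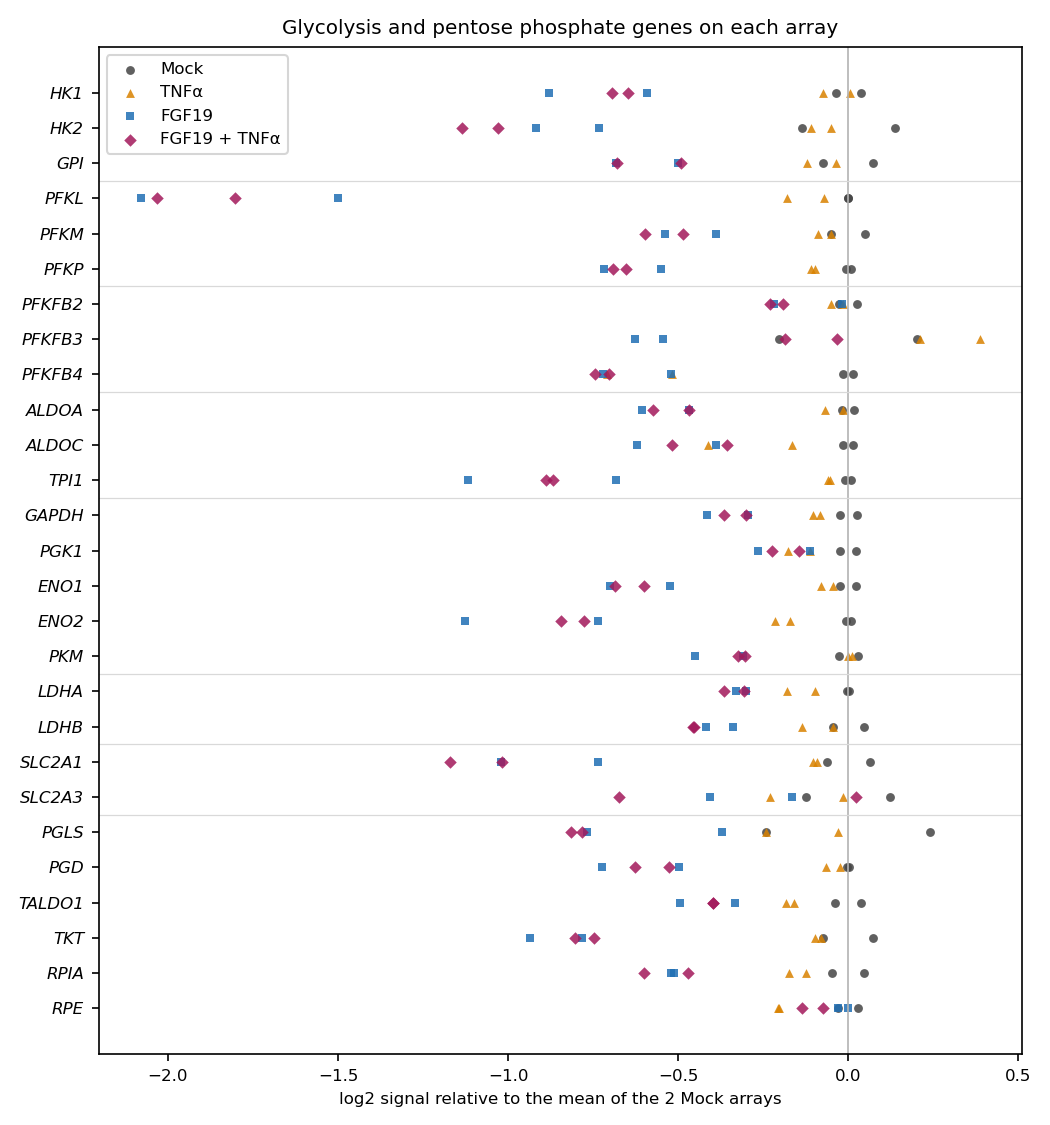
Log2 signal of each of the 27 genes on each of the 8 arrays, relative to the mean of the 2 Mock arrays, with 1 point per array and grey lines between groups of genes by step. In 20 of 27 genes, beside 18.4% of all probesets, all 4 arrays with FGF19 lie below all 4 without it. PFKL lies farthest to the left.

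To show what sequence lies before the genes on which the results turn, the 250 bases upstream of the RefSeq start site are given for PFKL, HK2 and SLC2A1, which fell most in the presence of TNFα, and for PGK1, which was not called. The build is GRCh38.p14 and each runs 5′ to 3′ along the gene. Capitals mark ACGTG or GCGTG on either strand, the core of the hypoxia response element that HIF1 binds.
PFKL (chr21:44299803-44300052, + strand): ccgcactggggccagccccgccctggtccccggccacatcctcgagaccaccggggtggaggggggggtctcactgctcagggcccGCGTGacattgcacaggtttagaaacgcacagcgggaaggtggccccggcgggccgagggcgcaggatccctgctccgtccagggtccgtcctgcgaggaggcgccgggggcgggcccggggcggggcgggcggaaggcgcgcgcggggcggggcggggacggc
HK2 (chr2:74833877-74834126, + strand): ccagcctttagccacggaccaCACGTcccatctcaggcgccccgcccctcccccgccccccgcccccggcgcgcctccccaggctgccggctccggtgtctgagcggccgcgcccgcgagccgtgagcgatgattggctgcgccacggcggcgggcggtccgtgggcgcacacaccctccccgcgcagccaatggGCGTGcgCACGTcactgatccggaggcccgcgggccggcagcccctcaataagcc
SLC2A1 (chr1:42958869-42959118, - strand): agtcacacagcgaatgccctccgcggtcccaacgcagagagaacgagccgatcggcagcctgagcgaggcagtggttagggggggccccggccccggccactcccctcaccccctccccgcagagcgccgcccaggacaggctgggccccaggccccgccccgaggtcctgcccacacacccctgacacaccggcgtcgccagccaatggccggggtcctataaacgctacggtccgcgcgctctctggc
PGK1 (chrX:78103998-78104247, + strand): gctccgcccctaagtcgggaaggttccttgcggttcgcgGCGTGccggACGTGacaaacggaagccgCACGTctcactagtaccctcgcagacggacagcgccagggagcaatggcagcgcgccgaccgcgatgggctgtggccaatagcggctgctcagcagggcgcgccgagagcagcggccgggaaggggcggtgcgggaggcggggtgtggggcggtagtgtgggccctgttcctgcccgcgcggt
PGK1 has 3 matches to the core, HK2 has 3, PFKL has 1 and SLC2A1 has 0 in this window. PFKL has 7 copies of the GC box GGGCGG, on both strands and with overlaps counted, HK2 has 4, PGK1 has 3 and SLC2A1 has 2. RPE, also not called and not printed here, has 0 matches to the core and 3 GC boxes. LDHA, called only against Mock, has 5 matches and 0 GC boxes.

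Among the 27 genes, 25 had an upstream sequence. The hypoxia core, read on both strands, was present in 14 of 25 (56%) and in 43.1% of 27305 promoters of the same length. The GC box, which SP1 binds, was present in 19 of 25 (76%) and in 42.3% of all. The E-box CACGTG, which MYC and USF factors bind and which contains ACGTG, was in 3 of 25 and in 6.49% of all. TGACTCA or TGAGTCA, the AP-1 site, was in 1 of 25 and in 4.16% of all, CCGGAAG, an ETS site, in 3 and 8.82%, and the NF-kB motif in 3 and 9.57%. The 250 bases had a median GC content of 69.6% in the 25 genes and 62.8% in 14239 named genes. Across those 14239 genes GC content and the log2 difference with FGF19 against Mock correlated at r = -0.12 (Spearman's rho = -0.12), as a description over genes that share the same arrays. In named genes with a GC content below 40%, 3.28% were called lower against Mock, at 40 to 50% it was 7.16% and at 50 to 60% 17.2%. At 60 to 70% it was 22.7%, and at 70% or above 21.1%. The part of base composition in the results was not tested.

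The first steps of the chain fell together. The hexokinases phosphorylate glucose on entry, HK1 being the widely expressed form and HK2 the form of muscle and of many tumours. HK1 signals were 596 and 567 on the Mock arrays, 552 and 584 on the TNFα arrays, 316 and 386 on the FGF19 arrays and 359 and 371 on the FGF19 + TNFα arrays. HK2 signals were 321 and 265 on the Mock arrays, 282 and 270.3 on the TNFα arrays, 154 and 175 on the FGF19 arrays and 133 and 143 on the FGF19 + TNFα arrays. In both genes every array with FGF19 lay below every array without it. The log2 difference of HK1 was -0.74 ± 0.12 (adjusted p = 0.00595) without TNFα and -0.64 ± 0.12 (adjusted p = 0.0101) with it. For HK2 it was -0.83 ± 0.12 (adjusted p = 0.00536) without TNFα and -1.004 ± 0.12 (adjusted p = 0.00391) with it, a fall of 1.77-fold and 2.01-fold. GPI, which turns glucose 6-phosphate into fructose 6-phosphate, stands where both pathways meet. GPI signals were 2964 and 2677 on the Mock arrays, 2748 and 2593 on the TNFα arrays, 1754 and 1991 on the FGF19 arrays and 2003 and 1757 on the FGF19 + TNFα arrays, again without overlap. Its log2 differences of -0.59 and -0.51 were both called (adjusted p = 0.0117 and 0.0205).

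Phosphofructokinase commits the sugar to glycolysis, and its liver form PFKL showed the largest difference of the 27 genes in both comparisons. PFKL signals were 578 and 578 on the Mock arrays, 510.3 and 551 on the TNFα arrays, 137 and 204 on the FGF19 arrays and 166 and 141 on the FGF19 + TNFα arrays. The 2 Mock arrays were nearly equal, and the highest array with FGF19 lay far below the lowest without it. The fall was 3.46-fold, a log2 difference of -1.79 ± 0.19 (adjusted p = 0.00287) without TNFα and -1.79 ± 0.19 (adjusted p = 0.00352) with it. PFKL is also in a list that the study chose on these same arrays, so its fall is not independent evidence. The study's own analysis of these arrays gave a smaller fall for this probeset in both comparisons, so the size depends on the processing. PFKM, the muscle form, and PFKP, the platelet form, also fell. PFKP signals were 1568 and 1584 on the Mock arrays, 1473 and 1460.2 on the TNFα arrays, 958 and 1077 on the FGF19 arrays and 1002 and 976 on the FGF19 + TNFα arrays. The log2 difference of PFKP was -0.63 ± 0.09 (adjusted p = 0.00452) without TNFα and -0.57 ± 0.09 (adjusted p = 0.00674) with it, and that of PFKM -0.46 ± 0.10 (adjusted p = 0.014) without TNFα and -0.47 ± 0.10 (adjusted p = 0.0143) with it. All 3 forms were thus lower on each array with FGF19 than on any without it.

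**Figure D2:**
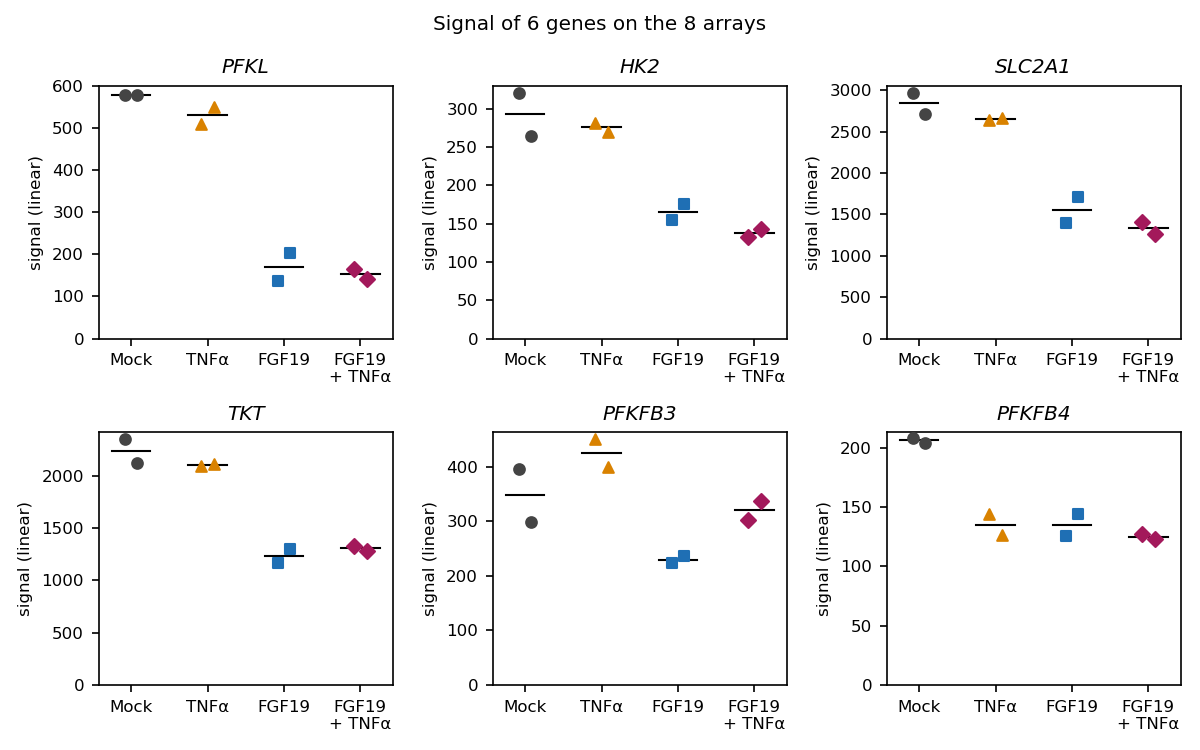
Signal on a linear scale of 6 genes on the 8 arrays, with 1 point per array and a line at each group's mean. PFKL, HK2, SLC2A1 and TKT are lower on all 4 arrays with FGF19, the PFKFB3 points with TNFα lie above those without it at either level of FGF19, and PFKFB4 is at 123 to 144 in the 3 treated groups and above 200 in Mock.

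The PFKFB enzymes make and break fructose 2,6-bisphosphate, the activator of phosphofructokinase. PFKFB3, an inducible form with high kinase activity, had signals of 397 and 299.7 on the Mock arrays, 452 and 399.6 on the TNFα arrays, 224 and 237 on the FGF19 arrays and 303 and 337 on the FGF19 + TNFα arrays. PFKFB3 fell with FGF19 against Mock (-0.58 ± 0.15, adjusted p = 0.0315), and with TNFα present the log2 difference was -0.41 ± 0.15 (adjusted p = 0.0904). The call against Mock ended without moderation and with only the groups compared (adjusted p = 0.0775 and 0.0754). Both TNFα arrays lay above both Mock arrays, and both FGF19 + TNFα arrays above both FGF19 arrays, but neither difference was called (0.30 ± 0.15, adjusted p = 0.487, and 0.48 ± 0.15, adjusted p = 0.653). PFKFB4, another inducible form, had signals of 209 and 204 on the Mock arrays, 144 and 126 on the TNFα arrays, 125 and 144 on the FGF19 arrays and 127 and 123 on the FGF19 + TNFα arrays. Mock stood above the 3 treated groups, which overlapped one another. PFKFB4 fell with FGF19 against Mock (-0.62 ± 0.11, adjusted p = 0.00837), and in the presence of TNFα the difference was -0.11 ± 0.11 (adjusted p = 0.474). PFKFB2, the form known from heart, was not called in either comparison (-0.12 and -0.18, adjusted p = 0.398 and 0.205).

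In the middle of the chain aldolase splits the 6-carbon sugar and triosephosphate isomerase joins the products into 1 stream. ALDOA, the main aldolase of muscle and tumours, fell by a log2 difference of -0.54 ± 0.09 against Mock and -0.48 ± 0.09 with TNFα (adjusted p = 0.00742 and 0.0117). ALDOC, the brain form, had signals of 118 and 120.2 on the Mock arrays, 89.4 and 106 on the TNFα arrays, 77.4 and 91.0 on the FGF19 arrays and 93.0 and 83.1 on the FGF19 + TNFα arrays. It was called against Mock (-0.50 ± 0.13, adjusted p = 0.0299), while the groups with TNFα overlapped (-0.15 ± 0.13, adjusted p = 0.419). The ALDOC call ended without moderation and with only the groups compared (adjusted p = 0.0649 and 0.0579). TPI1 signals were 3062 and 3026 on the Mock arrays, 2919 and 2933 on the TNFα arrays, 1401 and 1895 on the FGF19 arrays and 1667 and 1644 on the FGF19 + TNFα arrays. TPI1 fell 1.87-fold and 1.77-fold, a log2 difference of -0.90 ± 0.14 (adjusted p = 0.00632) without TNFα and -0.82 ± 0.14 (adjusted p = 0.00923) with it. A second probeset with its symbol gave larger falls, of -1.59 ± 0.20 and -1.37 ± 0.20 (adjusted p = 0.0034 and 0.00531). That probeset is in a table the study chose on these arrays, with a smaller fall against Mock there, and so is not independent evidence.

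In the lower chain the sizes were unequal. GAPDH, which makes the NADH of glycolysis and is often used as a reference gene, fell against Mock by a log2 difference of -0.36 ± 0.09 (adjusted p = 0.0234), a call that cyclic loess ended (-0.29, adjusted p = 0.056). With TNFα its difference was -0.24 ± 0.09 (adjusted p = 0.0787), although both FGF19 + TNFα arrays lay below both TNFα arrays. PGK1, the first ATP-yielding enzyme, was not called in either comparison (-0.19 ± 0.09 and -0.04 ± 0.09, adjusted p = 0.171 and 0.769). The 5 probesets shared by PGAM1, a phosphoglycerate mutase, and PGAM4, of which 2 held identical values, differed by -0.85 to -0.88 against Mock (adjusted p = 0.00325 to 0.00361) and by -0.59 to -0.65 with TNFα (adjusted p = 0.00783 to 0.0106), and they do not tell the 2 genes apart.

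The enolases, which make phosphoenolpyruvate, fell in both comparisons. ENO1, the widely expressed form, had signals of 8925 and 8632 on the Mock arrays, 8306 and 8506 on the TNFα arrays, 5398 and 6099 on the FGF19 arrays and 5790.0 and 5459 on the FGF19 + TNFα arrays. Its log2 difference was -0.61 ± 0.09 (adjusted p = 0.00563) without TNFα and -0.58 ± 0.09 (adjusted p = 0.00734) with it. ENO2, the neuronal form, had signals of 363 and 359 on the Mock arrays, 311 and 321 on the TNFα arrays, 165 and 217 on the FGF19 arrays and 211 and 201 on the FGF19 + TNFα arrays. Its log2 difference was -0.93 ± 0.14 (adjusted p = 0.00488) without TNFα and -0.62 ± 0.14 (adjusted p = 0.0183) with it, and neither gene's arrays overlapped between the levels of FGF19. PKM, the pyruvate kinase of proliferating cells and muscle, fell by a smaller amount, -0.38 and -0.32 (adjusted p = 0.019 and 0.034). Quantile normalization ended both PKM calls (-0.23 and -0.23, adjusted p = 0.11 and 0.113), and cyclic loess the one with TNFα (adjusted p = 0.0542).

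LDHA and LDHB encode the subunits of lactate dehydrogenase, LDHA favouring the step from pyruvate to lactate. LDHA signals were 5524 and 5508 on the Mock arrays, 5157 and 4874 on the TNFα arrays, 4390.2 and 4478 on the FGF19 arrays and 4457 and 4279.7 on the FGF19 + TNFα arrays. LDHA fell against Mock (-0.32 ± 0.08, adjusted p = 0.0282), but it was called in 0 of the 8 fits that left out 1 array, and with TNFα its difference was -0.20 ± 0.08 (adjusted p = 0.107). LDHB fell in both (-0.38 and -0.36, adjusted p = 0.0191 and 0.0227). Quantile normalization ended both LDHB calls (-0.23 and -0.27, adjusted p = 0.109 and 0.0691) and that of LDHA (-0.20, adjusted p = 0.115). Close copies of GAPDH, ENO1, TPI1, LDHA, PGK1, ALDOA, PGAM1 and PKM exist elsewhere in the genome, so what their probesets measured is uncertain to that extent.

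SLC2A1 encodes GLUT1, the glucose transporter of most cultured cells. SLC2A1 signals were 2966 and 2716 on the Mock arrays, 2642 and 2662 on the TNFα arrays, 1398 and 1706 on the FGF19 arrays and 1403 and 1261 on the FGF19 + TNFα arrays. Here too no array with FGF19 came near the range of those without it. The fall was 1.84-fold against Mock and 1.99-fold with TNFα, a log2 difference of -0.88 ± 0.12 (adjusted p = 0.00453) without TNFα and -0.995 ± 0.12 (adjusted p = 0.00395) with it. SLC2A3, the neuronal transporter GLUT3, was not called (-0.29 ± 0.24 and -0.20 ± 0.24, adjusted p = 0.413 and 0.553), and its standard errors were the widest of the 27 genes.

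**Figure D3:**
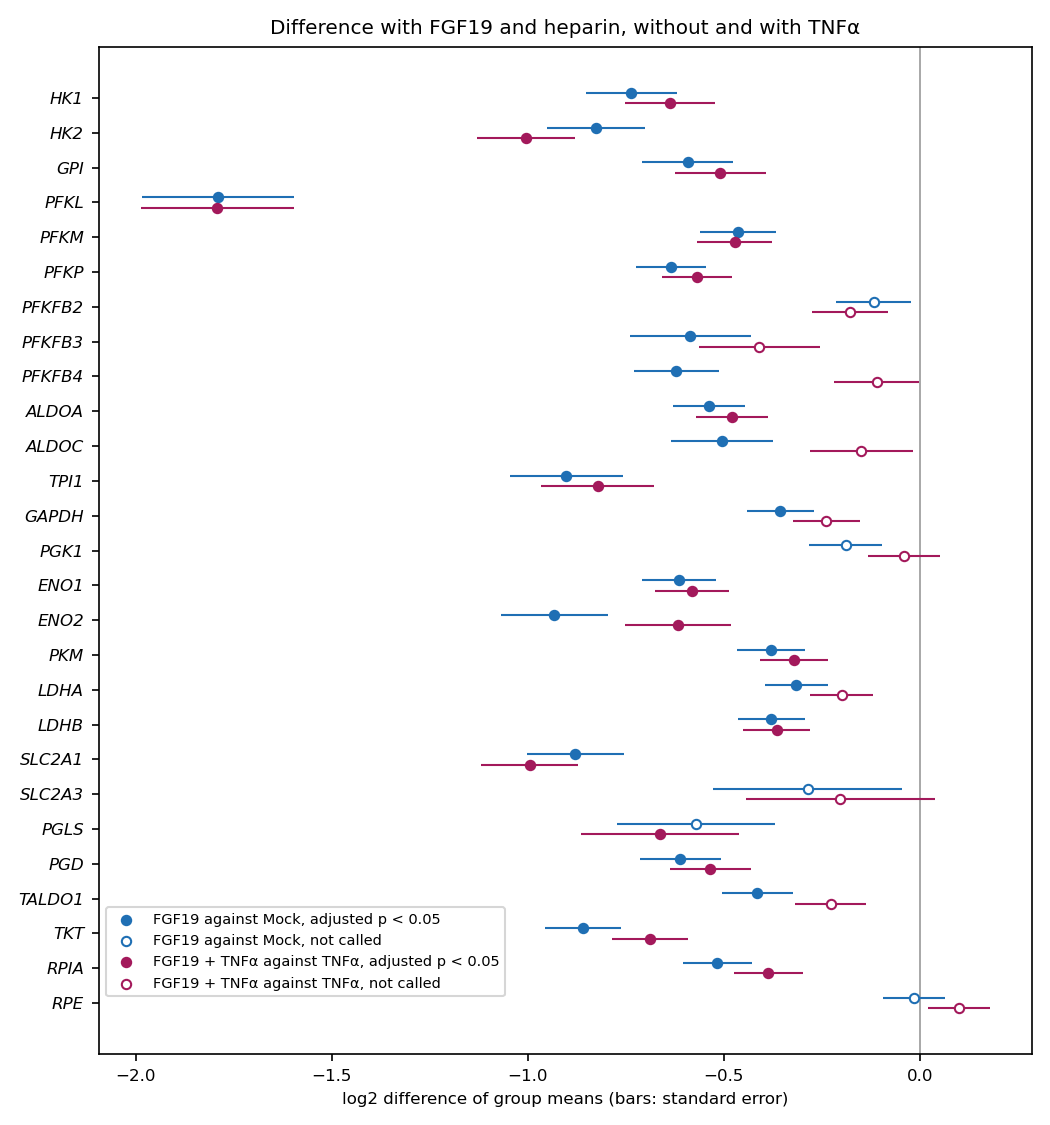
Log2 difference of the group means for each of the 27 genes, FGF19 against Mock and FGF19 + TNFα against TNFα, with bars of 1 standard error and filled points for adjusted p under 0.05. All 22 filled points of the first comparison and all 17 of the second lie below 0, and PFKFB2, PGK1, SLC2A3 and RPE are open in both.

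In the pentose phosphate pathway 4 of 6 measured genes fell in each comparison, beside the 14.1% and 12.9% of all probesets given above. PGLS, the lactonase, and PGD, which makes NADPH, belong to the oxidative arm. PGLS signals were 100.4 and 71.8 on the Mock arrays, 71.8 and 83.2 on the TNFα arrays, 49.8 and 65.6 on the FGF19 arrays and 48.3 and 49.4 on the FGF19 + TNFα arrays. This probeset was the dimmest of the 27, near the 38.9th percentile of all. Its difference was called only with TNFα (-0.57 and -0.66, adjusted p = 0.0778 and 0.0497), and that call ended without moderation (adjusted p = 0.118). PGD signals were 3395 and 3383 on the Mock arrays, 3241 and 3336 on the TNFα arrays, 2051 and 2401 on the FGF19 arrays and 2351 and 2194 on the FGF19 + TNFα arrays. PGD fell in both comparisons without overlap, by a log2 difference of -0.61 ± 0.10 (adjusted p = 0.00735) without TNFα and -0.53 ± 0.10 (adjusted p = 0.0123) with it.

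Transketolase and transaldolase, in the non-oxidative arm, pass carbon back to glycolysis. TKT signals were 2355 and 2127 on the Mock arrays, 2091 and 2117 on the TNFα arrays, 1170.0 and 1300.2 on the FGF19 arrays and 1332 and 1282 on the FGF19 + TNFα arrays. TKT fell 1.81-fold and 1.61-fold, a log2 difference of -0.86 ± 0.10 (adjusted p = 0.00303) without TNFα and -0.69 ± 0.10 (adjusted p = 0.00515) with it. TALDO1 signals were 1645 and 1735 on the Mock arrays, 1513 and 1489 on the TNFα arrays, 1199 and 1341 on the FGF19 arrays and 1283 and 1282 on the FGF19 + TNFα arrays, lower on each array with FGF19 than on any without. TALDO1 was called against Mock (-0.41 ± 0.09, adjusted p = 0.0168) but with TNFα the difference was -0.23 ± 0.09 (adjusted p = 0.104). RPIA, the ribose 5-phosphate isomerase, fell in both (-0.52 and -0.39, adjusted p = 0.00765 and 0.0208). RPE, the epimerase that stands beside it in the pathway, was not called. RPE signals were 1095 and 1139.7 on the Mock arrays, 969 and 970.3 on the TNFα arrays, 1116 and 1095 on the FGF19 arrays and 1016 and 1062 on the FGF19 + TNFα arrays. Its log2 difference was -0.02 ± 0.08 (adjusted p = 0.904) without TNFα and 0.10 ± 0.08 (adjusted p = 0.372) with it, the only positive difference among the 27 genes in that comparison.

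The calls of the 2 comparisons, which share no array, overlapped: 16 genes, out of 22 called against Mock and 17 called with TNFα, were lower in both, as were 10.8% of all probesets, and both comparisons drew on the spread of the same 8-array fit. Of the others, 6 were called only without TNFα (PFKFB3, PFKFB4, ALDOC, GAPDH, LDHA and TALDO1), 1 only with it (PGLS) and 4 in neither (PFKFB2, PGK1, SLC2A3 and RPE). Being called in 1 comparison and not in the other does not show that the effect differed, and the test of that difference, the interaction of FGF19 and TNFα, called none of the 27 genes by limma, with 1 at an unadjusted p under 0.05, where 0% of all probesets were called. That gene was PFKFB4, whose log2 difference with FGF19 was 0.51 ± 0.15 higher in the presence of TNFα than without it (unadjusted p = 0.0157, adjusted p = 0.951). The next were ALDOC, ENO2 and TALDO1, with interactions of 0.36, 0.31 and 0.19 (adjusted p = 0.973, 0.975 and 0.982).

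In 20 of 27 genes all 4 arrays with FGF19 lay below all 4 without it, in 7 the arrays overlapped and in 0 they lay above, while all 4 lay below in 18.4% of all probesets. The F test over the 4 groups called 15 of 27 genes at the adjusted p of 0.015 that the study's methods use, where it called 20.9% of all probesets. That count was lower in each fit without 1 array. The share of all probesets in those fits is not given here, so the drop cannot be read as particular to the 27 genes. Of the named genes with a mean signal at or above the median of the 27 genes, 22.8% fell and 27% rose against Mock, and 20.2% fell and 24.8% rose with TNFα. In bulk RNA, fewer cells of a kind and less RNA per cell cannot be told apart.

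The calls depended on single arrays, since each group had 2. In the fits named here a smaller share of all probesets was called lower, too, than in the fit to all 8 arrays. Left out in turn, the arrays gave 11 to 21 called falls against Mock, the lowest of them 11 without Mock replicate 1, 13 without FGF19 replicate 1 and 15 without Mock replicate 2, and 6 to 17 with TNFα, with 6 without FGF19 + TNFα replicate 2, 7 without TNFα replicate 2 and 8 without TNFα replicate 1. HK2, PFKL, PFKP, ENO1, SLC2A1 and TKT were called in all 8 such fits in both comparisons. FGF19 replicate 1 was lower than replicate 2 in 23 of 27 genes, with a median log2 difference of -0.17 beside 0.00 over all probesets. Quantile normalization, which removes the difference in dim signals between arrays, left 19 and 15 called falls and 0 called rises. With it 14.8% and 14.2% of all probesets fell, and 5319 and 5100 probesets rose.

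**Figure D4:**
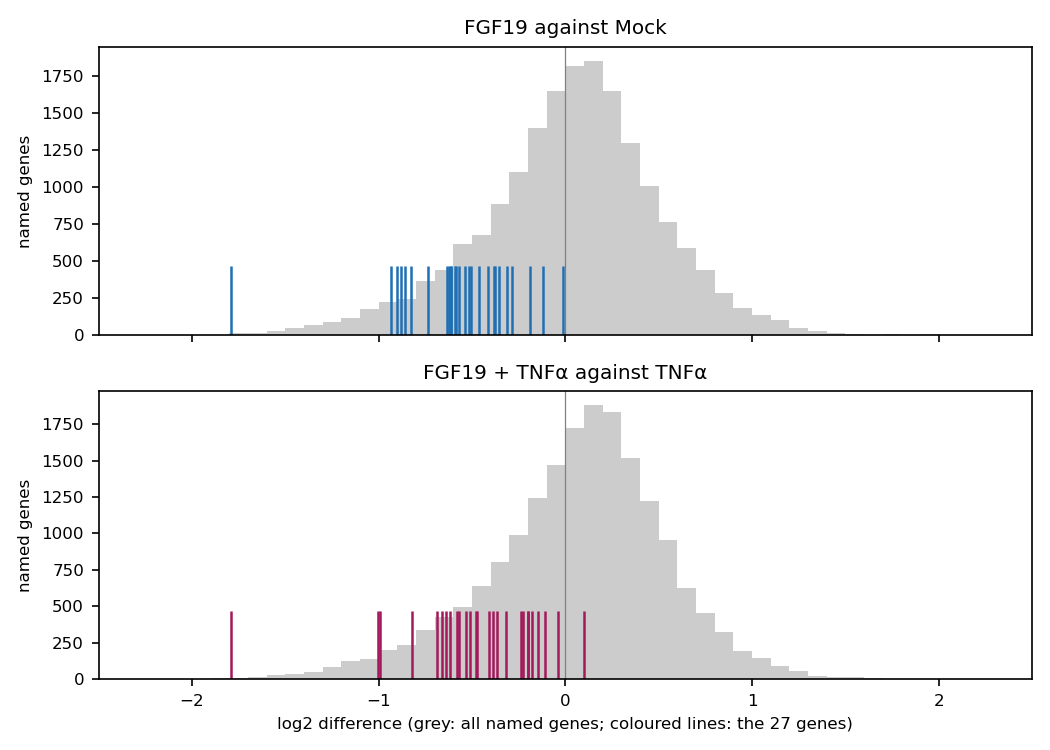
Histogram of the log2 differences of all named genes in bins, in grey, for FGF19 against Mock and FGF19 + TNFα against TNFα, with a coloured line at each of the 27 genes. All coloured lines lie left of 0 in the first panel, with RPE alone right of 0 in the second, and PFKL stands apart at -1.79 in both.

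With TNFα alone, 0 of 27 genes were called by limma and 2 had an unadjusted p under 0.05, where 1.06% of all probesets were called in either direction. The smallest p was that of PFKFB4, which was -0.61 ± 0.11 on the log2 scale (adjusted p = 0.0799). PFKFB4 was called in 4 of the other settings, with adjusted p = 0.0251 to 0.0392, and not in the rest, with 0.0789 to 0.387. RPE, ALDOC, PFKFB3, TALDO1 and LDHA followed, at -0.20, -0.29, 0.30, -0.17 and -0.14 (adjusted p = 0.376, 0.444, 0.487, 0.501 and 0.535). Of the 27 genes 25 had a negative difference, with a median of -0.09 beside -0.04 over all probesets. When TNFα was added to FGF19, limma called 0 of 27, with 1 at an unadjusted p under 0.05, where 0.282% of all probesets were called in either direction.

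Genes around the 2 pathways did not all take the direction of the core enzymes. Their lists were drawn up by function, with earlier results of these data known. For comparison, 17.0% of all named genes fell and 19.9% rose against Mock, and 15.4% fell and 21.9% rose with TNFα. Of 24 other genes of glycolysis and gluconeogenesis, 7 fell and 3 rose against Mock (median log2 difference -0.07), and 7 fell and 4 rose with TNFα (0.02). Mean signals in this list ran from the 10.7th percentile (LDHC) to the 91.5th (PGM2). PGK2, FBP2, G6PC1, PCK1 and PFKFB1 lay at the 13.4th to the 25.4th, whereas the dimmest of the 27 genes was at the 38.9th. Dim signals were higher on the arrays with FGF19, and the part of signal level in these counts was not tested. PGAM5, a mitochondrial phosphatase of the mutase family, fell by log2 differences of -1.24 and -1.07 (adjusted p = 0.00287 and 0.00405), and G6PC3, a glucose 6-phosphatase, and PC, pyruvate carboxylase, by less (-0.70 and -0.79, and -0.83 and -0.70). PGM2L1, which makes glucose 1,6-bisphosphate, rose (0.57 and 0.58). Of 10 other pentose phosphate genes, 2 fell and 0 rose in each comparison (medians -0.27 and -0.22), a share of 20% that lies near that of all named genes. SHPK, sedoheptulokinase, fell in both (-0.74 and -0.67) and H6PD, the enzyme of the oxidative arm in the endoplasmic reticulum, was called with TNFα present (-0.33 and -0.51, adjusted p = 0.0684 and 0.0169). TIGAR, a fructose 2,6-bisphosphatase, and TKTL2, a transketolase-like gene, were not called (-0.31 and 0.43 with TNFα, adjusted p = 0.0629 and 0.0733).

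Of 20 other genes of glucose and monocarboxylate transport, 5 fell and 1 rose against Mock and 5 fell and 0 rose with TNFα (medians -0.04 and 0.03). Their mean signals ran from the 15.4th percentile (SLC16A7) to the 96th (BSG), so this list, too, holds dim genes. SLC2A6, which encodes GLUT6, fell most (-1.21 and -1.35, adjusted p = 0.00371 and 0.00367). SLC2A8 and SLC2A10, for GLUT8 and GLUT10, and BSG, the chaperone of the lactate carriers, fell as well (-0.74 and -0.65, -0.35 and -0.53, and -0.67 and -0.71). Of 33 genes of pyruvate entry and the TCA cycle, 14 fell and 2 rose against Mock and 14 fell and 5 rose with TNFα (medians -0.19 and -0.27). SDHD, a succinate dehydrogenase subunit that is also in the study's own list, fell by log2 differences of -1.16 and -1.21 (adjusted p = 0.00275 and 0.00348). PDHB, of pyruvate dehydrogenase, and MDH1, cytosolic malate dehydrogenase, fell (-0.97 and -0.73, and -0.83 and -0.83), whereas ME2, the mitochondrial malic enzyme, rose (0.90 and 0.95). PDP1, the phosphatase that switches pyruvate dehydrogenase on, was the only gene of these lists called with TNFα against Mock, where it rose (0.71 ± 0.08, adjusted p = 0.0157). With FGF19 PDP1 differed by 0.03 against Mock (adjusted p = 0.808) and fell in the presence of TNFα (-0.40, adjusted p = 0.0125).

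**Figure D5:**
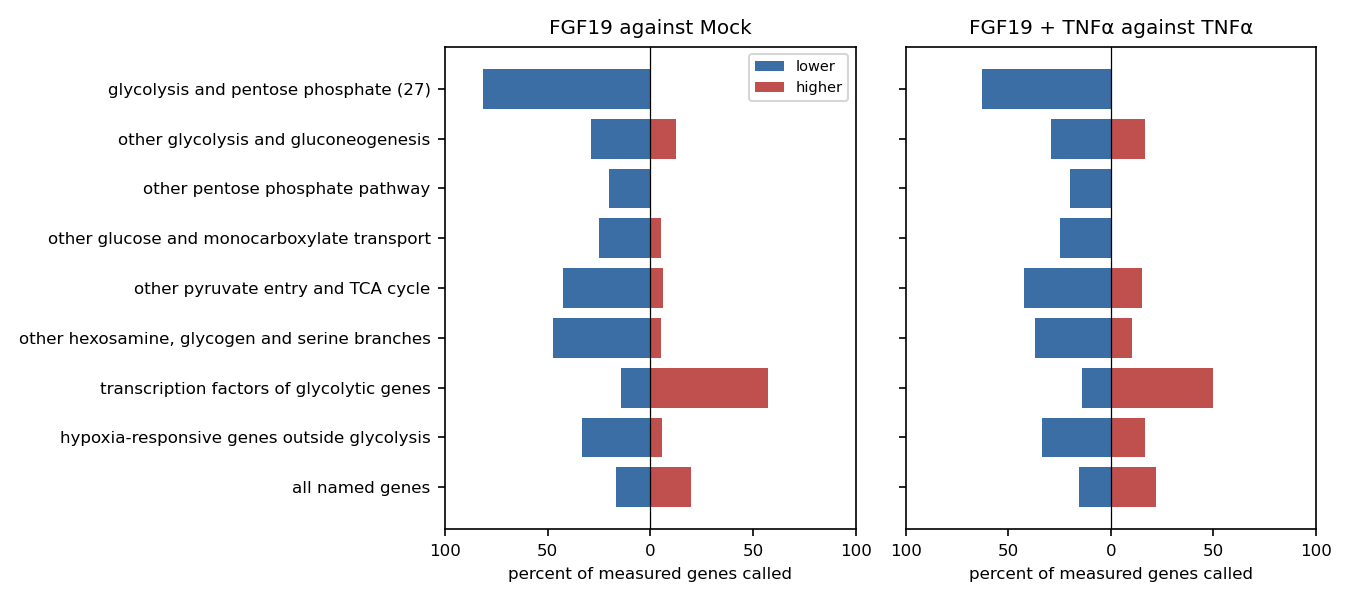
Percent of the measured genes of each list called lower (left of 0) and higher (right of 0) with FGF19, against Mock and in the presence of TNFα. The 27 core genes reach 81.5% and 63.0% lower with no bar to the right, the transcription factors lean right, and 17.0% and 15.4% of all named genes are lower.

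The hexosamine, glycogen and serine branches leave glycolysis for other products, and of 19 measured genes 9 fell and 1 rose against Mock and 7 fell and 2 rose with TNFα (medians -0.15 and -0.21). SHMT2, the mitochondrial serine hydroxymethyltransferase, fell by log2 differences of -1.33 and -1.31 (adjusted p = 0.00311 and 0.00367). PYGB, a glycogen phosphorylase, GPD1L, a glycerol 3-phosphate dehydrogenase-like enzyme, and UAP1, which makes UDP-N-acetylglucosamine, also fell (-1.06 and -0.95, -0.41 and -0.67, and -0.45 and -0.49). Transcription factors known to act on glycolytic genes went mostly the other way: 8 of 14 rose and 2 fell against Mock, and 7 rose and 2 fell with TNFα (medians 0.34 and 0.30). ARNT, the partner of HIF1A, rose by 0.57 and 0.59 (adjusted p = 0.00446 and 0.00482). NFE2L2, the NRF2 regulator of NADPH-making enzymes and also in the study's table, and SP1, which binds the GC box, rose (0.91 and 0.62, and 0.63 and 0.57), and ESRRA, an orphan nuclear receptor of energy metabolism, fell (-0.67 and -1.08).

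Of 18 genes that respond to hypoxia outside glycolysis, 6 fell and 1 rose against Mock and 6 fell and 3 rose with TNFα (medians -0.14 and -0.14). DDIT4, an inhibitor of mTORC1 that the study also chose on these arrays, fell by log2 differences of -1.92 and -1.89 (adjusted p = 0.00276 and 0.00348). EGLN3, a prolyl hydroxylase, NDRG1, a stress-response gene, and P4HA2, a collagen prolyl hydroxylase, fell by less (-0.53 and -0.61, -0.76 and -0.90, and -0.81 and -0.73). Under quantile and cyclic loess normalization 0 called genes of these lists changed sign, but medians near 0 did. With TNFα present the median of the other glycolysis genes turned to -0.03 and -0.02, and that of the transport genes to -0.09 and -0.08. Against Mock these medians became -0.17 and -0.15, and -0.13 and -0.11. Of 6 epithelial markers, 2 fell and 0 rose against Mock (median -0.18), and 2 fell and 1 rose with TNFα (median 0.03). KRT8 and KRT19 fell in both (-1.05 and -0.98, and -1.28 and -1.12), CDH1 rose with TNFα present (0.34, adjusted p = 0.0355), and KRT18, EPCAM and KRT5 were not called. The summed signal of the 6, most of it from the brighter keratins, was 8750 to 9779 without FGF19 and 6544 to 7211 with it. The 4 measured leukocyte markers summed to 172 to 184 without FGF19 and 205 to 225 with it, and 2 of them, LYZ and CD3E, were called higher in both comparisons from mean signals under 50, though with TNFα present neither was under quantile or cyclic loess normalization. Fibroblast markers summed to 309 to 336 without FGF19 and to 333 to 397 with it. Endothelial markers summed to 447 to 479 and to 501 to 543, most of it from CDH5, at the 73.3rd percentile. Against Mock 0 of 6 fibroblast and 0 of 4 endothelial markers were called. With TNFα present 1 of 6 and 2 of 4 were called higher and 0 lower, where 21.9% of all named genes rose. No marker was at 0. The part of these differences in the results for the 27 genes was not tested.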

How the data were processed

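RNA of DU145 cells was hybridised to 8 Affymetrix arrays in 4 groups of 2, grouped by the sample labels. The intensity values deposited by the authors are linear signals of 33297 probesets. PLIER and Affymetrix Expression Console are the tools that the submitters' processing notes name, while their versions and any normalization were not given in the sources used here. Before log2 the 240 zeros were replaced by 0.01, the lowest positive value of each array, and nothing was renormalized. A model of the 4 groups was fitted to all probesets with limma 3.58.1 in R 4.3.3, with Benjamini-Hochberg adjustment over all of them, and the steps were tested on simulated data. The platform annotation gave 1 symbol to 19460 probesets, several to 1754 and none to 12083. For 19429 of the 19460 the symbol was taken from RefSeq through the Entrez identifier, whether or not it changed. Genes were taken at their brightest probeset. Promoters came from RefSeq on GRCh38.p14. An array signal rests on no count, so its precision is limited by the number of arrays. The other settings were cyclic loess or quantile normalization, a pseudocount of 16, the dimmest 20% left out, no moderation, a trended and robust prior, only the groups compared, the replicate block, gene means and each array left out. Values on every array were printed for the 12 largest called differences in FGF19 + TNFα against TNFα, the 6 smallest p with TNFα and the 4 smallest in the interaction. From each neighbouring list the 4 genes with the smallest p in FGF19 + TNFα against TNFα and any gene called with TNFα were named by their differences, and from the check lists the largest difference. The members and lists were chosen with earlier results of these data known.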

Additional observations from a re-analysis of the deposited data

How the results depend on the processing

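Counts of called falls stayed within 1.5 times of 22 (FGF19 against Mock) and 17 (FGF19 + TNFα against TNFα) under all settings but those named here, and no setting called a rise. With only the groups compared, which leaves fewer degrees of freedom, 14 fell against Mock, beside 9.01% of all probesets. There PFKFB3, PFKM, ALDOC, GAPDH, PKM, LDHA, LDHB and TALDO1 lost their calls by limma (adjusted p = 0.0579 to 0.101). Without 1 array the counts ran from 11 to 21 and from 6 to 17. With TNFα against Mock the count of 0 became 1 (PFKFB4) with 16 added before log2, without the dimmest 20%, with the trended and robust prior and with gene means. The F test's 15 genes became 2 without moderation, 9 with the replicate block, and 0 to 13 without 1 array. FGF19 + TNFα against FGF19 and the interaction gave 0 in all settings run. The small difference of PGK1 with TNFα turned to 0.0375 under quantile normalization and ran from -0.0793 to 0.000197 without 1 array. That of RPE against Mock turned to 0.000777 under cyclic loess and ran from -0.0438 to 0.0136 without 1 array (the latter without Mock replicate 2), and that of SLC2A3 with TNFα from -0.551 to 0.145 (the latter without FGF19 + TNFα replicate 2). For these reversals the cause was not tested. Calls over all probesets split 4680 lower to 6051 higher against Mock and 4299 to 6474 with TNFα, and under quantile normalization 4928 to 5319 and 4735 to 5100. Under cyclic loess they split 4949 to 5384 and 4971 to 5024. The labels do not say what a replicate number shares. Differences between replicates 1 and 2 correlated between groups at r = -0.02 to 0.20, or 0.00 to 0.33 without dim probesets (highest between FGF19 and FGF19 + TNFα), and the replicate block left 22 and 16 called falls, PGLS losing its call (adjusted p = 0.0708). The 2 arrays per group limit the precision of each value.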
